A study of Mus musculus with 51 samples.

Results

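Mouse pluripotent lines were compared with mouse embryonic fibroblasts on 6 of the 51 Illumina bead arrays of a reprogramming study, 4 pluripotent arrays against 2 fibroblast arrays. A gene was kept as a member when limma called it between the groups, at an adjusted p under 0.05, and when every pluripotent array lay on the same side of both fibroblast arrays. Of 10065 genes tested, 3134 (31.1%) were kept. Of these, 1601 (15.9% of the tested genes) were higher and 1533 (15.2%) were lower in the pluripotent arrays.

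The pluripotent group held 1 array of induced pluripotent stem cells (iPSC) from primary reprogramming, 1 of iPSC from secondary reprogramming and 2 embryonic stem cell (ESC) controls, replicates 1 and 2. Both iPSC arrays were labelled doxycycline independent and were grown without doxycycline, the drug that switches on the 4 reprogramming factors c-Myc, Oct4, Sox2 and Klf4 in such systems. Clonal lines at day 16, maintained in doxycycline and labelled F-class (6 arrays) or C-class (22 arrays), gave a further point of reference. The fibroblast group held primary mouse embryonic fibroblasts, the parental cells, from an E15.5 embryo, and secondary fibroblasts at day 0 of the secondary course. All 6 arrays carried the strain label rtTA Mouse, ESC included, and rtTA is the transactivator that doxycycline turns on. The titles of both iPSC arrays and of the secondary fibroblast array share the name 1B. Nothing in the labels ties the arrays of a group to different cultures. The p-values below therefore reflect array-to-array spread alone, part of which may be technical.

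Pluripotent cells of the mouse hold a self-sustaining set of transcription factors around Oct4, Sox2 and Nanog, grow as tight epithelial colonies and divide with short gap phases. Embryonic fibroblasts are mesenchymal cells that secrete collagen and other matrix, pull on it through integrins and actin, and keep the HOX code of their place in the body. Reprogramming runs from the second state to the first and includes a mesenchymal-to-epithelial transition.

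Levels are normalized log2 intensities of 1 probe per gene, and 1 unit is a change of 2-fold. Values of the pluripotent arrays are given in the order primary iPSC, secondary iPSC, ESC replicate 1 and ESC replicate 2, and those of the fibroblast arrays in the order primary and secondary. Differences are pluripotent minus fibroblast with their standard error (SE), and adjusted p-values come from limma with Benjamini-Hochberg adjustment over all 10065 genes. A probe was detected where its detection p-value was under 0.05. Where a gene was undetected on every array of a group, only a bound is given, as "at least N-fold", against the higher of the gene's own signal and the lowest detected signal. Levels of different genes come from different probes and were not set against each other.

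The cell identities on the labels were checked against marker genes. The 10 pluripotency markers averaged 11.85, 11.55, 12.52 and 12.46 on the pluripotent arrays, against 4.99 and 5.03 on the fibroblast arrays, and 10 of 10 were higher. The 11 fibroblast markers averaged 8.44, 8.47, 9.22 and 7.11, against 11.39 and 11.93, and 10 of 11 were lower. Thy1, the fibroblast surface glycoprotein, was the exception (13.51, 13.84, 13.03 and 11.60 on the pluripotent arrays, against 14.56 and 14.70 on the fibroblast arrays, adjusted p = 0.064). ESC replicate 2 had the lowest fibroblast marker mean of the 4 pluripotent arrays and ESC replicate 1 the highest.

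An ESC array and a fibroblast array stood apart in transcripts of another cell type. The 11 measured macrophage markers averaged 6.34, 6.01, 10.29 and 6.01 on the pluripotent arrays, against 5.99 and 8.87 on the fibroblast arrays. They were high on ESC replicate 1 and on the secondary fibroblast array. C1qb, a complement gene of macrophages, had levels of 4.90, 4.56, 10.78 and 4.57, against 4.80 and 9.58, and Lyz2, the macrophage lysozyme, had 8.36, 6.69, 13.79 and 7.19, against 7.11 and 11.67. Of the 10 macrophage markers tested, 0 were called in limma, and 0 had an unadjusted p under 0.05. Without ESC replicate 1, 1848 genes were kept as higher and 1744 as lower. Without the secondary fibroblast array, which leaves 1 fibroblast array assumed to vary like the others, 741 were kept as higher and 647 as lower, and without the primary fibroblast array 885 and 784. The part of these transcripts in the other results was not tested. In bulk RNA, fewer cells of a type and less RNA per cell cannot be told apart.

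**Figure D1:**
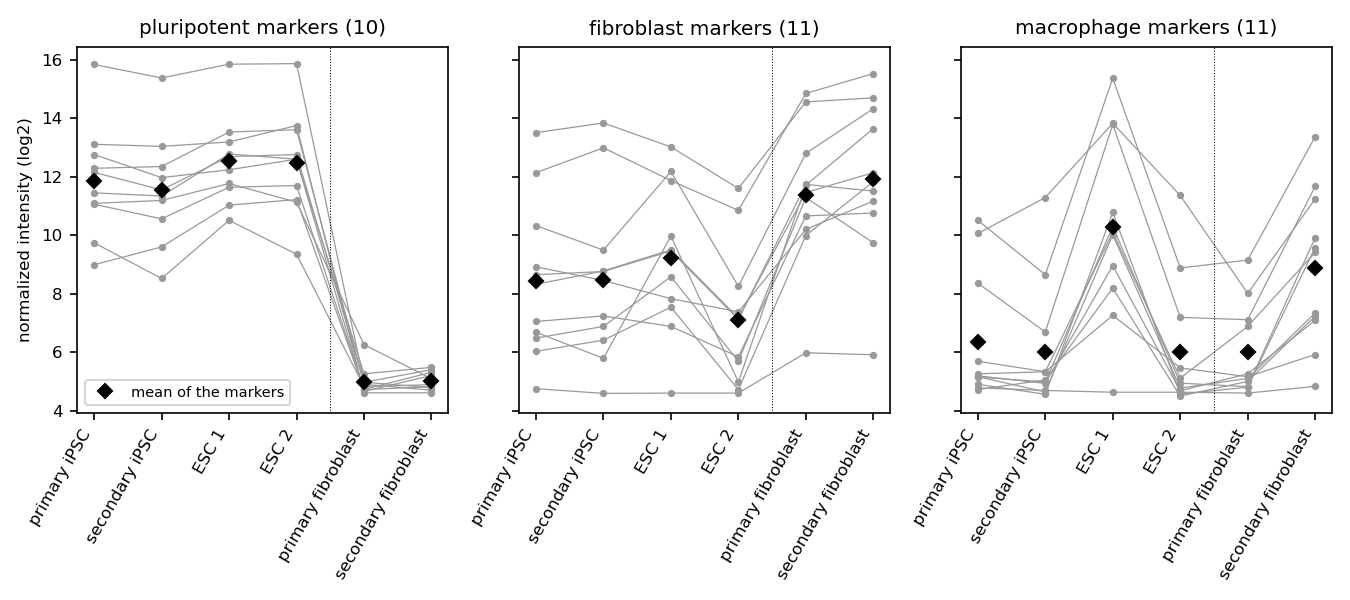
Normalized log2 intensity of marker genes on the 6 arrays, pluripotent arrays left of the dotted line and fibroblast arrays right of it; grey points joined by lines are single markers and black diamonds their mean. The pluripotency markers average 11.55 to 12.52 on the pluripotent arrays and about 5 (4.99 and 5.03) on the fibroblast arrays, and the macrophage markers average 10.29 on ESC replicate 1 and 8.87 on the secondary fibroblast array.

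The pluripotent arrays correlated with the fibroblast arrays at 0.7768 to 0.8432 over the tested genes. The iPSC pair correlated at 0.9854, the ESC pair at 0.9364 and the fibroblast pair at 0.9577, as descriptions across genes that are not independent. The primary and secondary fibroblast arrays differed by over 2-fold in 1371 genes (13.6%). The share of detected probes was 48.7% to 53.2%. The intensities of ESC replicate 1 and of the primary fibroblast array were deposited with 1 decimal and those of the other 4 arrays with several decimals. With this number format as a term in the fit, 1843 genes were kept as higher and 1804 as lower. Within each format the medians were 1.51 (ESC replicate 1 minus primary fibroblast) and 1.71 (the other 3 minus secondary fibroblast) over the genes kept as higher, and -1.47 and -1.66 over those kept as lower, in a direction that the rule fixes.

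Across all tested genes the median difference was -0.02 (log2). The genes kept as higher had a median difference of 1.65, and 195 of them differed by more than 10-fold and 23 by more than 100-fold. The genes kept as lower had a median of -1.6, and 4 differed by more than 100-fold. In 404 of the genes kept as higher the probe was undetected on both fibroblast arrays, and in 117 of those kept as lower it was undetected on all 4 pluripotent arrays. Such genes passed the detection filter through the group where they were high, so they had to be higher there. On the other side of the line, 2161 genes did not overlap between the groups and were still not called. Just inside the threshold lay Lrrc47 (1.01 ± 0.33, adjusted p = 0.04997) and Lpar4 (-1.91 ± 0.62, adjusted p = 0.0499), and just outside it B4galt1 (-0.87 ± 0.28, adjusted p = 0.0501) and Tmem51 (1.07 ± 0.35, adjusted p = 0.0501).

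**Figure D2:**
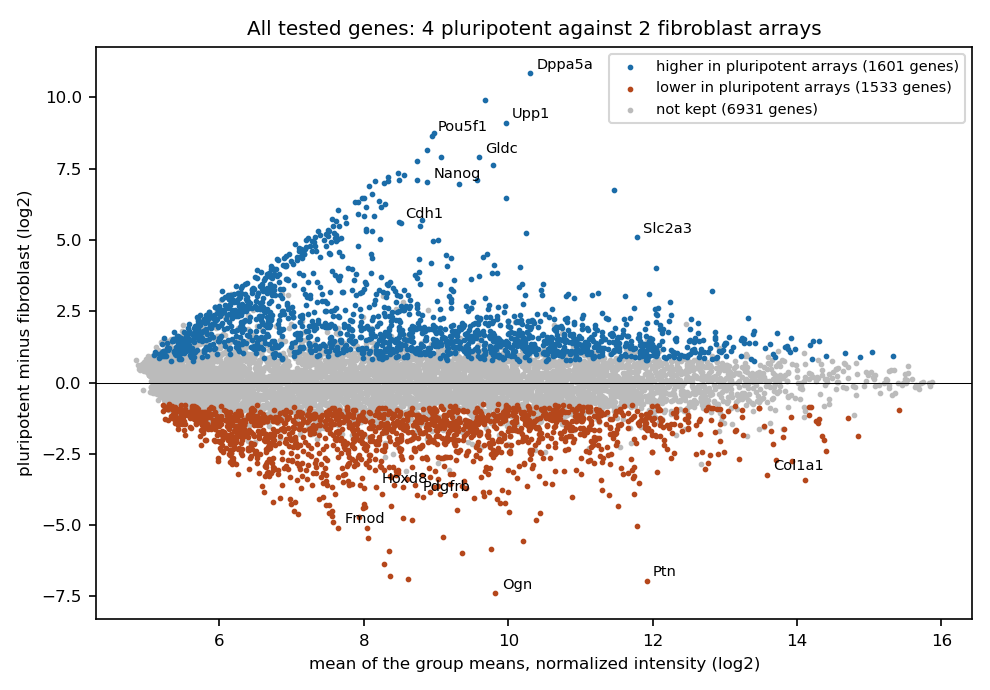
Difference between the pluripotent and fibroblast means (log2, vertical) against the mean of both group means (log2, horizontal) for the 10065 genes tested, with 1601 kept as higher in blue, 1533 kept as lower in orange and the rest in grey. Genes not detected on any array of a group are drawn at their fitted difference, for which the data give only a bound.

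The core and naive pluripotency factors included the transcription factors that define the state. Of 20 listed, 18 had a probe and 15 were tested. Of the 15, 14 rose (93.3%, against 15.9% of all tested genes) and 0 fell. The median difference was 5.19, or 4.7 with the 8 genes that were undetected on both fibroblast arrays at their bound. Pou5f1, which encodes Oct4, had levels of 13.11, 13.04, 13.19 and 13.75 on the pluripotent arrays, against 4.61 and 4.61 on the fibroblast arrays. It was undetected in both fibroblast arrays and at least 217-fold higher in the pluripotent arrays (adjusted p = 4.1e-06). Nanog, the homeodomain factor that stabilises the naive state, had 12.76, 11.97, 12.24 and 12.60, against 5.26 and 5.48, and was detected on 1 of the 2 fibroblast arrays (7.02 ± 0.30 SE, adjusted p = 1.3e-05). In both genes all 4 pluripotent arrays lay within 1 unit of each other. Sox2, the partner of Oct4 on DNA, had 8.99, 9.60, 11.03 and 11.22, against 4.73 and 5.31, and was at least 25.9-fold higher (adjusted p = 0.0013). Its iPSC levels were both below its ESC levels.

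Esrrb, an orphan nuclear receptor of the naive network, had levels of 12.29, 12.35, 13.53 and 13.61 on the pluripotent arrays, against 4.90 and 4.70 on the fibroblast arrays. Sall4, a zinc finger partner of Oct4, had 12.87, 13.06, 13.20 and 13.00, against 4.93 and 5.30, and its 4 pluripotent values lay close together. The bounds were at least 172-fold for Esrrb (adjusted p = 3.7e-05) and at least 183-fold for Sall4 (adjusted p = 4.1e-06). Of the 3 Sall4 probes tested, 2 were called higher and 0 lower. Zfp42, also called Rex1 and a marker of the naive state, had 12.15, 11.55, 12.69 and 12.76, against 4.97 and 5.40 (at least 109-fold, adjusted p = 3.6e-05). Zscan10 (at least 51.9-fold) and Nr5a2 (at least 14.9-fold), regulators of Oct4 in ESC, and Tcl1, an Akt coactivator (at least 15.2-fold), rose as well. The Krüppel-like factors were detected in both groups. Klf4 had 9.03, 8.85, 9.14 and 9.86, against 7.74 and 8.45 (1.13 ± 0.37, adjusted p = 0.0497), Klf2 differed by 1.83 ± 0.32 and Klf5 by 3.11 ± 0.54. Tbx3, a T-box factor of ESC and of mesenchyme, was the tested member that was not called. It had 6.76, 8.08, 9.42 and 8.94, against 9.39 and 7.64, and the groups overlapped (adjusted p = 0.86).

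The RefSeq promoter windows of Nanog and Zfp42, 300 bases around a gene start, are shown because the octamer core ATGCAAA, part of a site that Oct4 binds, lies in them. Capitals mark the core in Nanog and the full octamer ATGCAAAT, which holds the core, in Zfp42. Both windows are on GRCm38.p6, chr6:122707315-122707614 on the plus strand and chr8:43306960-43307259 on the minus strand, read 5′ to 3′ along the gene.
Nanog: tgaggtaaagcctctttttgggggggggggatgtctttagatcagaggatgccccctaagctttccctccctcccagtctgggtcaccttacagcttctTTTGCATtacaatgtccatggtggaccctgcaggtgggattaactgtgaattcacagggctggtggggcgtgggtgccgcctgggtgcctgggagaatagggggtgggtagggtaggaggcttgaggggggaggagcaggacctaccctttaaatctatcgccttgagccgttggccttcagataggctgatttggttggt
Zfp42: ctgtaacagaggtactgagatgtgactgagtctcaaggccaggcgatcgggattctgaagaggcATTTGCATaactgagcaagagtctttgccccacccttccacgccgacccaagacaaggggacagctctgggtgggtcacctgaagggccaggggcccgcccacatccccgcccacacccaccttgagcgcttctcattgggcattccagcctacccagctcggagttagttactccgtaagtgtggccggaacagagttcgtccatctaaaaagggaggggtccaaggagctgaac
The octamer core ATGCAAA, on either strand and contained in the full octamer ATGCAAAT, was counted by gene where at least 1 window held it. It was found in 3 of the 12 tested core factors with a window (Sox2, Nanog and Zfp42). Among the other ESC-enriched genes, 1 of the 10 tested with a window held it (Zfp296). Counted by window rather than by gene, the share was 4.63% of all 32851 promoter windows. A match is a description of the letters and not a site of binding. Of the genes kept as higher, 3.8% held the core, against 4.28% of those kept as lower and 4.56% of those in neither set.

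Among 25 other ESC-enriched genes, 21 had a probe and 18 were tested. Of the 18, 17 rose (94.4%, against 15.9% of all tested genes) and 0 fell. The median difference was 4.81 (4.23 with bounds). Dppa5a, an RNA-binding protein of pluripotent cells, had levels of 15.84, 15.38, 15.85 and 15.87 on the pluripotent arrays, against 4.97 and 4.79 on the fibroblast arrays. Its bound, at least 1194-fold (adjusted p = 1.9e-06), was the highest among the kept genes. Dppa4, a chromatin protein of the early embryo, had 13.23, 13.00, 13.46 and 13.70, against 4.57 and 4.62 (at least 228-fold, adjusted p = 4.1e-06). Fbxo15, an F-box protein gene used as a reporter in early reprogramming work, had 11.45, 11.34, 12.78 and 12.60, against 4.66 and 5.20 (at least 92.2-fold, adjusted p = 9.6e-05), and was lower on both iPSC than on both ESC arrays. Dppa3, the maternal factor Stella, ran the other way, with 11.35, 10.04, 8.65 and 8.78, against 4.63 and 4.76 (at least 18.2-fold, adjusted p = 0.0022), and was highest on the primary iPSC array. The RNA-binding factors Lin28a (at least 17.6-fold) and L1td1 (at least 30.4-fold), the chromatin factor Utf1 (at least 53-fold) and the embryonic Ras gene Eras (at least 22.1-fold) were undetected on both fibroblast arrays. Alpl, whose alkaline phosphatase activity is the classical stain for pluripotent colonies, was detected in both groups (10.81, 10.89, 9.46 and 11.19, against 6.99 and 6.66; 3.77 ± 0.48, adjusted p = 0.0015). Bex1 was the tested member that was not called (6.03, 4.94, 6.84 and 5.43, against 5.69 and 4.83), and the groups overlapped.

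The 15 largest rises also included genes not described so far. Trh, the precursor of thyrotropin-releasing hormone, had levels of 15.78, 14.90, 13.87 and 13.99 on the pluripotent arrays, against 4.68 and 4.74 on the fibroblast arrays (at least 556-fold, adjusted p = 3.2e-05), and was higher on both iPSC than on both ESC arrays. Upp1, uridine phosphorylase of pyrimidine salvage, had 14.39, 14.47, 15.06 and 14.18, against 5.83 and 4.98, and was detected on 1 of the 2 fibroblast arrays (9.12 ± 0.36, adjusted p = 9.0e-06). Pla2g1b, a secreted phospholipase known from the pancreas, had 12.14, 12.26, 11.49 and 11.82, against 4.71 and 4.76 (at least 85.3-fold, adjusted p = 1.0e-05). Otx2, a homeodomain factor of the epiblast and later of the forebrain, had 12.02, 12.29, 12.57 and 11.77, against 4.67 and 4.92 (at least 100-fold, adjusted p = 1.0e-05). For each of these 4 genes all pluripotent arrays lay more than 4 log2 units above both fibroblast arrays.

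**Figure D3:**
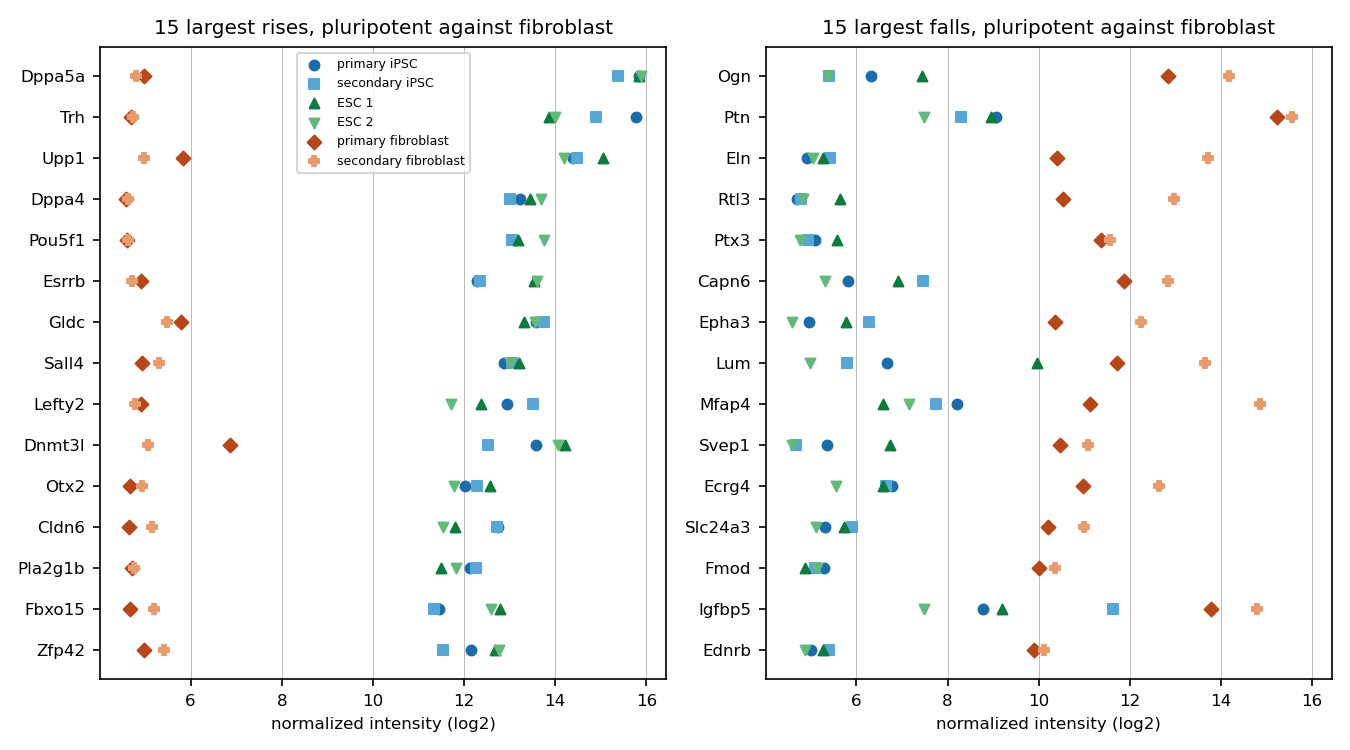
Normalized log2 intensity on each of the 6 arrays for the 15 genes with the largest rise (left panel) and the 15 with the largest fall (right panel) in the pluripotent arrays. Blue and green symbols are pluripotent and orange symbols fibroblast arrays, and the groups do not overlap for any of the 30 genes, as the rule requires.

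Signalling genes of ESC moved both ways. Of 29 listed genes of the Nodal, LIF, FGF and BMP pathways, 25 were tested. Of these, 13 rose and 4 fell, with a median difference of 1.11 (0.58 with bounds). These are 52% and 16% of the tested members, against 15.9% and 15.2% of all tested genes. On the Nodal branch, which uses activin receptors, the ligand Nodal had 10.59, 10.24, 8.68 and 10.48, against 5.17 and 5.00 (at least 22.4-fold, adjusted p = 7.9e-04). Its antagonist Lefty2 had 12.94, 13.52, 12.37 and 11.71, against 4.91 and 4.78 (at least 139-fold, adjusted p = 5.7e-05), and Lefty1 had 13.48, 13.65, 11.93 and 13.77, against 6.56 and 6.92 (6.47 ± 0.52, adjusted p = 2.3e-04). The Nodal co-receptor Tdgf1 rose by at least 16.1-fold and the activin receptor Acvr2b by 4.50 ± 0.37. On the FGF branch, the ligand Fgf4 (at least 4.39-fold) and the targets Etv5 (3.63 ± 0.33), Etv4 (2.57 ± 0.36), Spry4 (2.49 ± 0.44) and Dusp6 (1.63 ± 0.31) rose. Fgf5, a ligand that marks the primed epiblast, had 10.58, 10.24, 8.71 and 8.52, against 5.74 and 5.48 (3.90 ± 0.61, adjusted p = 0.0032), with both iPSC above both ESC arrays.

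Genes listed with the LIF and BMP branches included the falls, whose share was near that of all tested genes. Stat3, the effector of LIF, had 9.48, 10.09, 10.55 and 9.41, against 11.54 and 11.26, and fell by 1.51 on the log2 scale (SE 0.38, adjusted p = 0.019). The BMP receptor Bmpr1a (-1.38 ± 0.24), the BMP target Id3 (-1.74 ± 0.42) and the procollagen protease Bmp1 (-2.08 ± 0.64), which shares only a name with the BMP ligands, also fell. The Bmp1 call (adjusted p = 0.041) was lost without the primary iPSC array, ESC replicate 2 or either fibroblast array (adjusted p 0.05 to 0.27, with a difference of -1.29 without the primary fibroblast array) and with the replicate block (adjusted p = 0.068). Il6st, the shared LIF receptor subunit gp130, had 5.38, 5.33, 8.11 and 7.57, against 7.11 and 6.83. Its iPSC values lay below and its ESC values above both fibroblast values, and it was not called (adjusted p = 0.76). Pim1, a kinase gene that LIF signalling induces, rose (1.11 ± 0.35, adjusted p = 0.047), whereas the receptor Lifr and the feedback inhibitor Socs3 were not called (adjusted p = 0.46 and 0.28). Without either fibroblast array 1 of the 25 genes was called lower.

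Epithelial genes formed a broad group of rises. Of 28 listed junction and keratin genes, 23 were tested. Of these, 19 rose (82.6%, against 15.9% of all tested genes) and 0 fell. The median difference was 2.86 (2.31 with bounds), and 14 of the 19 were undetected on both fibroblast arrays. Cdh1, E-cadherin of adherens junctions, had levels of 11.09, 11.19, 11.77 and 11.13 on the pluripotent arrays, against 6.26 and 5.09 on the fibroblast arrays, with detection on 1 of the 2 fibroblast arrays (5.62 ± 0.39, adjusted p = 1.1e-04). The tight junction claudins Cldn6 (12.75, 12.72, 11.80 and 11.54, against 4.66 and 5.16) and Cldn4 (11.48, 11.60, 11.62 and 10.93, against 4.73 and 4.89) were at least 103-fold and at least 59.4-fold higher. Cldn6 was somewhat higher on iPSC than on ESC arrays, whereas Cldn4 was lowest on ESC replicate 2. Esrp1, the splicing factor that sets epithelial exons, had 11.75, 11.36, 11.84 and 11.83, against 4.66 and 4.59 (at least 72.5-fold, adjusted p = 6.7e-06), and its relative Esrp2 rose by at least 1.55-fold.

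The simple keratins that pair in early epithelia rose together, Krt8 with 12.12, 12.54, 10.85 and 11.13, against 5.60 and 6.32 (5.70 ± 0.51, adjusted p = 3.8e-04), and Krt18 with 9.23, 10.79, 9.47 and 8.90, against 5.04 and 5.32 (at least 16.9-fold). Grhl2, a transcription factor that activates junction genes, was at least 15.6-fold higher, and the surface protease gene St14 and its inhibitor Spint1 at least 8.84-fold and 4.95-fold higher. Ovol1 (adjusted p = 0.052), Ovol2 (adjusted p = 0.13), Crb3 and Pkp1 were not called.

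The claudin promoters are shown because the E-box that the mesenchymal repressors of the Snai and Zeb families bind occurs in them more than once. Capitals mark CACCTG on either strand, on GRCm38.p6 at chr5:134946885-134947184 (minus strand) and chr17:23679115-23679414 (plus strand).
Cldn4: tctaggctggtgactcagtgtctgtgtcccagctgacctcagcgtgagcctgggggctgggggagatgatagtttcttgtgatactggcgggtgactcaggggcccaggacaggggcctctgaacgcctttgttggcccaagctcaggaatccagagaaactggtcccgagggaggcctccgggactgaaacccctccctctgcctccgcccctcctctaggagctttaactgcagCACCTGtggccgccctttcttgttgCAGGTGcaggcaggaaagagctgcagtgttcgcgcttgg
Cldn6: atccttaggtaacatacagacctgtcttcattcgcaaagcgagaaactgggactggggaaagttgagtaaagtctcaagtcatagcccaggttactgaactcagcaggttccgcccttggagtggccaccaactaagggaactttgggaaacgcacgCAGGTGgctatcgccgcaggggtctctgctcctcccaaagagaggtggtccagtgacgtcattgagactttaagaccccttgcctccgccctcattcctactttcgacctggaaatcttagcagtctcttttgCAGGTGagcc
CACCTG was found in 12 of the 14 tested epithelial genes with a window, against 20.2% of all 32851 windows. Counted by gene, 28.1% of the genes kept as higher (355 of 1264 with a window) held it, against 17.7% of those kept as lower (211 of 1191) and 21% of those in neither set. The E-box CACGTG, which Myc factors bind, was in 13.9% of the genes kept as higher, 11.4% of those kept as lower and 11.4% of those in neither set. These were among 20 motifs searched on both strands, and the shares were not tested. TCACGTGA holds CACGTG, which 7.15% of all windows held. The others were ACAAAGG for Sox factors, TCAAGGTCA for Esrrb, GGGTGTGG and CCACCC for Klf factors, TGANTCA for AP-1, CAGACA for Smad factors and GGAATG for Tead factors. For further factors they were TTTGGCGC and TTTCGCGC for E2F, TCACGTGA for Myc, the related E-box CAGGTA and, for the TATA box, TATAAA. Given by name alone, the rest were the NRF1 motif, the CArG box and 2 forms of the composite Oct4-Sox2 element. Between 0 and 31.5% of all windows held each.

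Chromatin genes moved in both directions. Of 15 listed DNA methylation enzymes 9 were tested. Of these, 6 rose (66.7%, against 15.9% of all tested genes) and 0 fell, with a median of 1.7. Dnmt3b, a de novo methyltransferase, had levels of 14.99, 15.22, 14.10 and 15.06 on the pluripotent arrays, against 8.02 and 8.17 on the fibroblast arrays (6.75 ± 0.36, adjusted p = 3.1e-05). Its catalytically inactive partner Dnmt3l had 13.57, 12.54, 14.21 and 14.06, against 6.87 and 5.07, with detection on 1 of the 2 fibroblast arrays (7.63 ± 0.61, adjusted p = 2.3e-04). The maintenance enzyme Dnmt1 (0.94 ± 0.27) and its cofactor Uhrf1 (1.70 ± 0.28) rose by less. The Dnmt1 call (adjusted p = 0.032) was lost without any 1 of the arrays other than ESC replicate 1 (adjusted p 0.055 to 0.14) and with the replicate block (adjusted p = 0.052), and that of Uhrf1 with the mean of its probes (0.94, adjusted p = 0.056).

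Of 26 listed polycomb genes 20 were tested. Of these, 8 rose and 2 fell (40% and 10%, against 15.9% and 15.2% of all tested genes), with a median of 0.67. The repressive complex 2 subunits Ezh2 (1.70 ± 0.29), Eed (1.80 ± 0.37), Suz12 (1.48 ± 0.31) and Mtf2 (2.52 ± 0.47) rose. Within complex 1, related subunits went opposite ways. Cbx7, the chromobox subunit of ESC, had 10.59, 10.43, 10.54 and 11.36, against 5.16 and 5.50 (5.40 ± 0.33, adjusted p = 6.0e-05, detected on 1 of the 2 fibroblast arrays). Its relative Cbx8 had 5.08, 5.08, 5.37 and 4.85, against 7.16 and 6.83 (-1.90 ± 0.27, adjusted p = 0.0021), with detection on 1 of the 4 pluripotent arrays. Pcgf6 rose (2.39 ± 0.44) while Bmi1, also called Pcgf4, fell, with 6.51, 6.17, 6.34 and 6.40, against 8.75 and 8.42 (-2.23 ± 0.25, adjusted p = 9.9e-04).

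Of 33 chromatin remodelling and lamina genes 26 were tested. Of these, 12 rose and 4 fell (46.2% and 15.4%, against 15.9% and 15.2% of all tested genes), with a median of 0.93. B-type lamins Lmnb1 (13.27, 13.06, 13.43 and 13.46, against 11.34 and 10.95; 2.16 ± 0.27) and Lmnb2 (1.34 ± 0.38) and the lamin B receptor Lbr (2.24 ± 0.38) rose, and Lmna, the A-type lamin of differentiated nuclei, fell (11.45, 11.75, 12.40 and 10.62, against 13.69 and 12.81; -1.70 ± 0.49, adjusted p = 0.035). All 4 falls were Lmna and the SWI/SNF subunits Smarca2 (-2.92 ± 0.52), Smarcd3 (-2.23 ± 0.28) and Smarcc2 (-1.95 ± 0.31). Smarcd1, the subunit of the ESC form of that complex, rose (2.02 ± 0.48, adjusted p = 0.016, detected on 1 of the 2 fibroblast arrays), whereas its ATPase Smarca4 was not called (0.49 ± 0.35, adjusted p = 0.31). Leaving out the secondary fibroblast array left 7 of the 26 genes called higher.

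DNA replication genes rose in 14 of 20 tested (26 listed), or 70%, against 15.9% of all tested genes. They fell in 0, with a median of 1.52. All 6 subunits of the replicative helicase rose, from 1.26 for Mcm4 to 2.60 for Mcm3, and Mcm2 for instance had 11.97, 12.17, 11.98 and 12.72, against 9.72 and 9.99. The loading factors Mcm10 (3.05 ± 0.26), Cdc6 (1.90 ± 0.31) and Cdt1 (2.28 ± 0.45) rose too, although with the mean of all its probes Cdc6 differed by 0.60 and was not called (adjusted p = 0.055), and Pcna, the sliding clamp, was not called (0.93 ± 0.48, adjusted p = 0.17). DNA repair genes rose in 15 of 17 tested (24 listed), or 88.2%, against the same 15.9%. They fell in 0, with a median of 2.11. Ung, the uracil glycosylase of base excision repair, had 11.95, 11.91, 12.08 and 12.39, against 8.60 and 9.05 (3.26 ± 0.28, adjusted p = 3.2e-04). The mismatch factor Msh6 (2.82 ± 0.38), the recombination genes Rad54b (2.71 ± 0.36) and Brca2 (2.34 ± 0.28) and the strand-break sensor Parp1 (2.35 ± 0.30) followed. Mgmt and Fancc were not called. With the secondary fibroblast array left out, 8 of the 20 replication genes and 9 of the 17 repair genes were called higher.

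Of 24 cyclins, CDK inhibitors and E2F-related genes tested (28 listed), 6 rose and 3 fell, with a median of -0.12. These are 25% and 12.5%, against 15.9% and 15.2% of all tested genes. Mybl2, an S and G2 phase transcription factor, had 11.47, 11.47, 12.21 and 12.32, against 7.86 and 7.60 (4.13 ± 0.34, adjusted p = 2.7e-04), and Ccne1, cyclin E1 of S phase entry, rose by 2.31 ± 0.35. The 3 falls were all inhibitors, Cdkn2c or p18 (-2.68 ± 0.48), Cdkn1c or p57 (-2.20 ± 0.55) and Cdkn1b or p27 (-1.12 ± 0.29). The Cdkn1b call was lost with the mean of its probes (-0.51, adjusted p = 0.11). That of Cdkn1c was lost in the fit that included the day 16 clones (adjusted p = 0.086) and without a detection filter (adjusted p = 0.056). Cdkn1a, which encodes p21, had 11.55, 11.92, 11.81 and 10.82, against 12.38 and 12.59, and was not called (adjusted p = 0.074), nor was Cdkn2a of the p16 and Arf locus (adjusted p = 0.64). Of 17 p53 target and senescence genes tested (20 listed), 0 rose and 2 fell (11.8%, against 15.2% of all tested genes). The falls were the death receptor Fas (7.73, 7.71, 7.31 and 6.68, against 9.81 and 10.09, difference -2.60 ± 0.36, adjusted p = 0.0019) and Gadd45b (-1.75 ± 0.33). Without the secondary array of fibroblasts, 2 of the 24 cyclin list genes were called higher and 1 lower.

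Ribosome biogenesis genes rose in 15 of 19 tested (24 listed), or 78.9%, against 15.9% of all tested genes. They fell in 0, with a median of 1.52. The largest difference in the list was that of Rrp9 (2.18 ± 0.33), a factor of small-subunit rRNA processing, and nucleolin, Ncl, had 11.40, 12.00, 11.45 and 11.97, against 9.93 and 9.65 (1.91 ± 0.30, adjusted p = 0.0032). Npm1, nucleophosmin, was high in both groups (15.46, 15.77, 15.24 and 15.67, against 14.68 and 15.48) and not called. In the fit without the secondary fibroblast array 7 of the 19 genes were called higher.

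Glycolysis and pyruvate genes rose in 9 of 18 tested (24 listed) and fell in 0, with a median of 1.3. The rises are 50% of the tested members, against 15.9% of all tested genes. Slc2a3, the high-affinity glucose transporter GLUT3, had levels of 14.17, 14.64, 14.23 and 14.30 on the pluripotent arrays, against 9.10 and 9.35 on the fibroblast arrays (5.11 ± 0.26, adjusted p = 2.9e-05). Slc2a1, which encodes GLUT1, had 14.19, 14.92, 14.18 and 14.38, against 11.96 and 10.48 (3.20 ± 0.44), and hexokinase 2, Hk2, differed by 2.59 ± 0.54. Gapdh, Tpi1 and Pkm, further enzymes of glycolysis, were not called, with differences of 0.43 ± 0.28, 0.33 ± 0.42 and 1.03 ± 0.50. The 2 fibroblast arrays differed here: the primary array was above the secondary array in 14 of the 18 genes, by a median of 0.83, and without the secondary array 2 of the 18 genes were called higher.

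Respiratory chain genes were called in 2 of 19 tested (23 listed), with a median of 0.24. Both were higher, a share of 10.5%, against 15.9% of all tested genes. They were Cox7a1 (9.14, 9.62, 10.00 and 9.85, against 7.16 and 5.55, difference 3.29 ± 0.47) and Cox6b2 (1.73 ± 0.46). The Cox6b2 call was lost with the mean of its probes (0.95, adjusted p = 0.057) and without a detection filter (adjusted p = 0.061). Leaving out ESC replicate 2, and likewise the primary fibroblast array, left 1 of the 19 called higher. Of 16 one-carbon and amino acid genes tested (20 listed), 5 rose and 3 fell (31.2% and 18.8%, against 15.9% and 15.2% of all tested genes). Gldc, the glycine decarboxylase that feeds one-carbon units into nucleotide synthesis, had 13.58, 13.74, 13.32 and 13.56, against 5.78 and 5.47 (7.92 ± 0.26, adjusted p = 4.1e-06). The cytosolic folate enzymes Shmt1 (3.23 ± 0.36) and Mthfd1 (2.31 ± 0.32) rose with it. The 3 falls were of stress-response genes that ATF4 induces, Ddit3 or CHOP (7.59, 7.53, 9.89 and 7.84, against 11.46 and 10.91; -2.98 ± 0.66), the cystine transporter Slc7a11 (-2.50 ± 0.29, detected on 2 of the 4 pluripotent arrays) and Trib3 (-2.34 ± 0.36).

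Germline and telomere genes rose in 8 of 15 tested (23 listed), or 53.3%, against 15.9% of all tested genes. They fell in 0, with a median of 1.9 (1.21 with bounds). Tex19.1, a germ cell protein that restrains retrotransposons, had 10.53, 11.51, 10.78 and 11.61, against 5.03 and 4.89 (at least 48.2-fold, adjusted p = 5.2e-05). Zscan4c, a telomere factor of the cleavage embryo, had 6.53, 8.10, 10.81 and 12.21, against 4.81 and 5.02 (at least 14.9-fold, adjusted p = 0.042), and spread over more than 5 units across the pluripotent arrays. Dazl, an RNA-binding protein of germ cells, was at least 3.23-fold higher, whereas Ddx4, the germ cell helicase Vasa, was not called (0.45 ± 0.37, adjusted p = 0.39). Of the 15 genes, 4 were called higher without the secondary fibroblast array.

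Fibroblast matrix genes made up the other side. Of 38 listed matrix and secreted genes other than collagens, 34 were tested. Of these, 23 fell (67.6%, against 15.2% of all tested genes) and 0 rose, with a median of -2.39. Ogn, osteoglycin, a small leucine-rich proteoglycan, had levels of 6.32, 5.40, 7.44 and 5.37 on the pluripotent arrays, against 12.85 and 14.18 on the fibroblast arrays (-7.38 ± 0.64, adjusted p = 3.3e-04). Ptn, the secreted growth factor pleiotrophin, had 9.06, 8.30, 8.94 and 7.49, against 15.23 and 15.55 (-6.94 ± 0.45, adjusted p = 8.1e-05). Eln, elastin, had 4.91, 5.41, 5.28 and 5.05, against 10.40 and 13.71 (-6.89 ± 0.77, adjusted p = 9.0e-04), and the fibroblast arrays differed by more than 3 units in it. Its probe was detected on 1 of the 4 pluripotent arrays. Fmod, fibromodulin, was undetected on all 4 pluripotent arrays (5.30, 5.09, 4.88 and 5.14, against 10.01 and 10.36) and was lower by at least 28.7-fold (adjusted p = 2.9e-05).

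Lum, lumican, had 6.68, 5.79, 9.97 and 4.98, against 11.71 and 13.65 (-5.83 ± 1.26, adjusted p = 0.012), with detection on 3 of the 4 pluripotent arrays, ESC replicate 1 the highest of them. Dcn, decorin, had 10.33, 9.49, 12.18 and 8.25, against 12.80 and 14.33 (-3.50 ± 0.97, adjusted p = 0.029), with the same array highest. Igfbp5, an IGF-binding protein, had 8.77, 11.63, 9.19 and 7.48, against 13.79 and 14.79 (-5.02 ± 0.98, adjusted p = 0.0077), and here the secondary iPSC array was highest. Mfap4, a microfibril protein (8.21, 7.74, 6.58 and 7.16, against 11.12 and 14.85; -5.56 ± 0.92), and Cxcl12, a stromal chemokine (10.13, 9.97, 8.84 and 8.72, against 12.66 and 13.67; -3.75 ± 0.51), fell and were lower on every pluripotent array than on both fibroblast arrays. Timp1 and Mmp3, a protease inhibitor and a protease, overlapped between the groups, as did Tnc. The mean over the 34 genes was 10.23, 10.33, 10.32 and 8.88 on the pluripotent arrays, against 12.45 and 13.07 on the fibroblast arrays, and ESC replicate 2 was the lowest of the pluripotent arrays for 26 of the 34. Of the 34, 11 were called lower without the secondary fibroblast array.

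Of 29 listed collagen and collagen processing genes, 24 were tested. Of these, 15 fell and 1 rose (62.5% and 4.17%, against 15.2% and 15.9% of all tested genes), with a median of -2.53. The fibril-forming chains Col1a1 (12.14, 12.99, 11.87 and 10.85, against 14.85 and 15.53; -3.23 ± 0.55, adjusted p = 0.0045) and Col3a1 (6.03, 6.41, 7.54 and 4.72, against 9.99 and 11.83; -4.73 ± 0.77, adjusted p = 0.0039) both fell, and Col3a1 was detected on 3 of the 4 pluripotent arrays. Col1a1 stayed well above background on all pluripotent arrays, whereas Col5a2, a regulator of fibril width, was undetected on them (4.75, 4.84, 4.84 and 4.72, against 9.47 and 9.31; lower by at least 16.5-fold, adjusted p = 2.9e-05). The processing genes Loxl1, a crosslinking oxidase (-3.03 ± 0.49), Pcolce, a procollagen protease enhancer (-3.14 ± 0.34), and Serpinh1, the collagen chaperone (-2.85 ± 0.52), fell with them. Of the basement membrane chains, Col18a1 rose (13.40, 13.46, 13.06 and 13.84, against 11.86 and 12.04; 1.49 ± 0.29, adjusted p = 0.0076), and Col4a1 (12.62, 13.61, 11.02 and 11.85, against 12.87 and 14.34) overlapped and was not called (adjusted p = 0.19). Without the secondary fibroblast array 9 of the 24 were called lower, and without the primary array 8.

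The remaining large falls were of other kinds. Ptx3, a secreted pentraxin of innate defence, had 5.09, 4.94, 5.58 and 4.77, against 11.36 and 11.57 (-6.37 ± 0.30, adjusted p = 2.0e-05). Rtl3, a gene derived from a retrotransposon (4.69, 4.78, 5.64 and 4.82, against 10.53 and 12.96; -6.77 ± 0.62), and Capn6, a calpain without protease activity (5.81, 7.47, 6.90 and 5.30, against 11.87 and 12.84; -5.98 ± 0.61), lie on the X chromosome. Epha3, an ephrin receptor, had 4.97, 6.27, 5.77 and 4.58, against 10.36 and 12.26 (-5.91 ± 0.63), and Ednrb, the endothelin B receptor, had 5.00, 5.39, 5.27 and 4.87, against 9.90 and 10.11 (-4.87 ± 0.27, adjusted p = 3.6e-05). Svep1, an adhesion protein (-5.44 ± 0.59), Ecrg4, which encodes a secreted peptide (-5.42 ± 0.53), and Slc24a3, a sodium-calcium exchanger (-5.09 ± 0.35), completed the 15. The probes of Ptx3, Rtl3, Ednrb and Svep1 were detected on 1 of the 4 pluripotent arrays, those of Epha3 and Slc24a3 on 2 and that of Capn6 on 3.

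Transcription factors of mesenchyme fell in 18 of 22 tested (30 listed), or 81.8%, against 15.2% of all tested genes. They rose in 0, with a median of -2.45. The inducers of epithelial-to-mesenchymal transition Snai1 (8.37, 8.28, 8.33 and 7.50, against 10.62 and 9.59; -1.98 ± 0.39), Zeb1 (-2.05 ± 0.35), Zeb2 (-2.04 ± 0.64), Twist1 (8.92, 8.45, 7.83 and 7.38, against 10.20 and 11.17; -2.54 ± 0.48) and Twist2 (-2.37 ± 0.51) all fell and all stayed detected on the 4 pluripotent arrays. Osr2, an odd-skipped factor of connective tissue, had 5.18, 5.21, 6.30 and 5.58, against 10.47 and 10.11 (-4.72 ± 0.37, adjusted p = 2.2e-04), with detection on 2 of the 4 pluripotent arrays. Meox2, a homeodomain factor of somitic mesoderm, was undetected on all 4 pluripotent arrays (4.70, 4.62, 5.08 and 4.74, against 9.03 and 9.54; lower by at least 15.3-fold, adjusted p = 6.2e-05). Nfix (-4.00 ± 0.39) and Nfib (-3.69 ± 0.53), nuclear factor I genes, and Prrx1 (-3.13 ± 0.58), a limb mesenchyme factor, fell as well. Tcf7l1, a Wnt pathway repressor that ESC also use, was not called (0.31 ± 0.38, adjusted p = 0.58). Of 13 AP-1 and immediate early genes tested (15 listed), 0 rose and 1 fell (7.69%, against 15.2% of all tested genes). The fall was Egr1 (11.42, 11.26, 11.61 and 11.10, against 12.88 and 12.41, difference -1.29 ± 0.28, adjusted p = 0.011). The Egr1 call was lost without the primary fibroblast array (adjusted p = 0.087).

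Surface and contractile genes of fibroblasts fell in 12 of 26 tested (29 listed), or 46.2%, against 15.2% of all tested genes. They rose in 0, with a median of -1.44. The PDGF receptors Pdgfrb (7.05, 7.24, 6.88 and 5.84, against 10.66 and 10.76; -3.95 ± 0.41, adjusted p = 6.6e-04) and Pdgfra (8.32, 8.78, 9.50 and 7.17, against 11.46 and 12.14; -3.35 ± 0.59, adjusted p = 0.0054) had the largest differences of this list, with the adhesion receptor Vcam1 (-3.08 ± 0.36). The cytoskeletal genes fell by less. Vim, vimentin, had 13.12, 13.77, 13.17 and 11.96, against 14.63 and 14.61 (-1.62 ± 0.46, adjusted p = 0.033), and Acta2, smooth muscle actin, had 15.29, 15.14, 14.73 and 14.53, against 15.89 and 15.90 (-0.97 ± 0.30, adjusted p = 0.041). The Acta2 call was lost without the secondary iPSC array, either ESC array or either fibroblast array (adjusted p 0.055 to 0.15) and with the 6 arrays normalized alone (0.06), and the mean of its probes gave -2.05 (adjusted p = 0.0087). Cd44 and S100a4 overlapped between the groups. ESC replicate 2 was the lowest pluripotent array for 22 of the 26 genes. Without the primary fibroblast array 5 of the 26 were called lower, without the secondary array 6, and within the 4 arrays of several decimals 6.

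Of 23 integrin, focal adhesion and YAP target genes tested (27 listed), 2 rose and 8 fell, with a median of -0.92. These are 8.7% and 34.8%, against 15.9% and 15.2% of all tested genes. Both rises were chains of laminin-binding integrins, Itga3 (9.45, 9.94, 9.36 and 10.23, against 7.15 and 7.29; 2.52 ± 0.32, adjusted p = 0.0015) and Itga6 (1.99 ± 0.60, adjusted p = 0.038, detected on 1 of the 2 fibroblast arrays), and the falls included Itgb5 (-1.87 ± 0.54), Itga1 (-1.73 ± 0.51) and the linker Parva (-2.24 ± 0.48). Yap1 itself (-0.05 ± 0.26) and its target Ccn2 (0.19 ± 0.34) were not called, while its relative Wwtr1, or TAZ, fell (-1.47 ± 0.33, adjusted p = 0.013). Without the primary fibroblast array 0 of these 23 genes were called lower, without the secondary array 3, 4 without ESC replicate 2, and within the arrays of several decimals 3. Of 18 TGF-beta, PDGF and other growth factor genes tested (20 listed), 1 rose and 8 fell, with a median of -1.44. These are 5.56% and 44.4%, against the same 15.9% and 15.2%. The ligand Tgfb3 had 8.20, 8.17, 8.35 and 6.50, against 11.58 and 12.19 (-4.08 ± 0.54, adjusted p = 0.0017), and the receptor Tgfbr2 had 10.62, 10.64, 11.15 and 8.65, against 12.71 and 13.75 (-2.96 ± 0.67, adjusted p = 0.014). Tgfb1 overlapped between the groups. Pdgfb was the rise (8.34, 8.71, 8.92 and 7.94, against 4.75 and 5.66; 3.27 ± 0.38, adjusted p = 0.0011), detected on 1 of the 2 fibroblast arrays, and its direction was opposite to that of both receptors. Without the secondary fibroblast array 4 of the 18 were called lower.

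**Figure D4:**
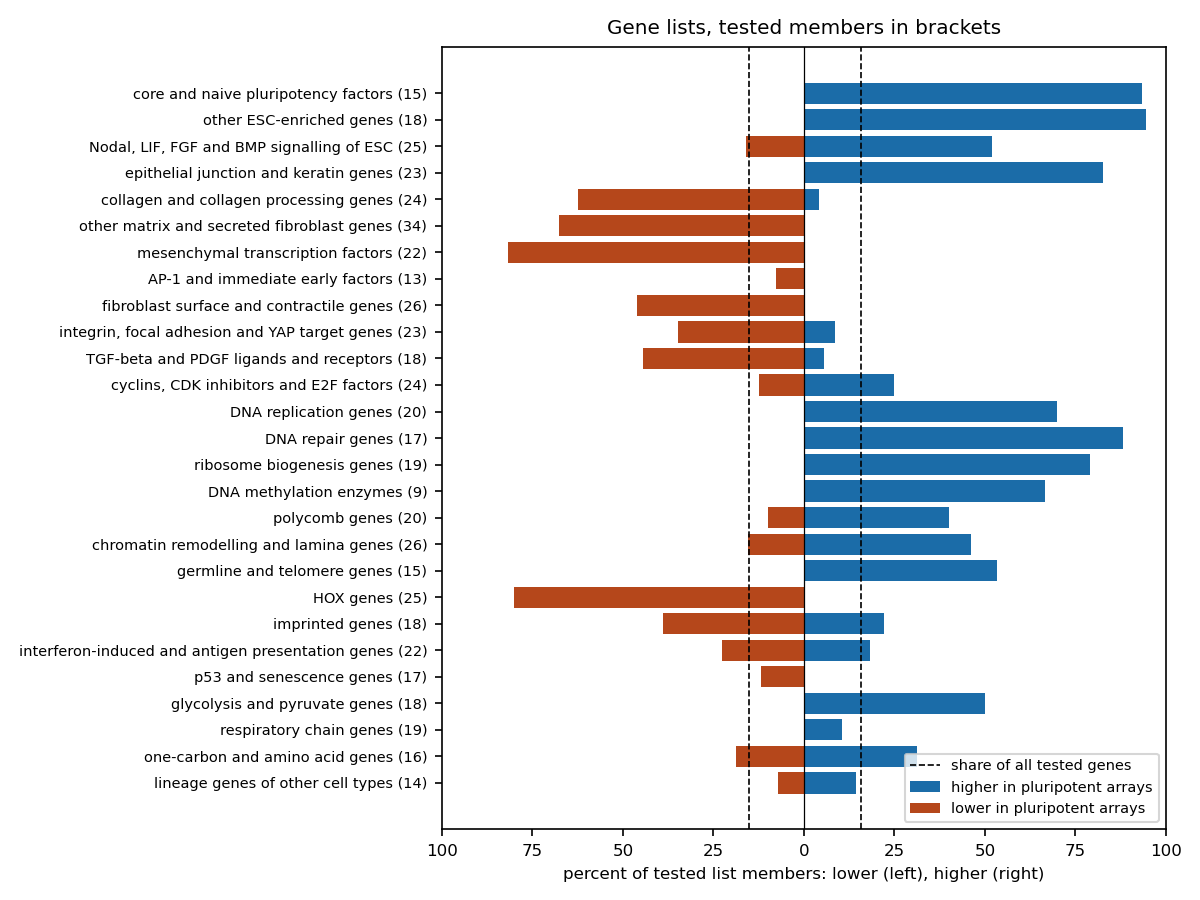
Share of the tested members of each gene list (number tested in brackets) that was kept as lower (left, orange) or higher (right, blue) in the pluripotent arrays, in percent. Dashed lines mark the shares of all tested genes, 15.2% lower and 15.9% higher; the core pluripotency factors reach 93.3% higher and the HOX genes 80% lower.

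The HOX genes, which record position along the body axis, fell in 20 of 25 tested (39 listed) and rose in 0, with a median of -1.92. The falls are 80% of the tested members, against 15.2% of all tested genes. All 4 clusters were represented among the falls. Hoxd8 had levels of 6.45, 7.13, 6.74 and 5.02 on the pluripotent arrays, against 9.77 and 10.22 on the fibroblast arrays (-3.66 ± 0.55, adjusted p = 0.0028), with detection on 3 of the 4 pluripotent arrays. Hoxa5 had 5.45, 6.88, 5.50 and 6.04, against 8.94 and 10.00 (-3.50 ± 0.48, adjusted p = 0.002), and Hoxc9 had 6.53, 7.83, 7.12 and 6.09, against 10.44 and 9.53 (-3.09 ± 0.51, adjusted p = 0.0039). In all 3 the secondary iPSC array was the highest of the pluripotent arrays, and this held for 18 of the 25 genes. Hoxd12 was undetected on all 4 pluripotent arrays and was lower by at least 4.47-fold. Hoxb1, Hoxc4, Hoxd11, Hoxc13 and Hoxa13 were not called. Of the 25, 13 were called lower without the secondary fibroblast array.

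Imprinted genes, expressed from 1 parental allele, moved both ways: of 18 tested (28 listed), 4 rose and 7 fell, with a median of -1.55. These are 22.2% and 38.9%, against 15.9% and 15.2% of all tested genes. Phlda2, a growth restrictor of the placenta, had 11.32, 11.41, 11.19 and 11.64, against 5.25 and 4.80 (at least 58.7-fold higher, adjusted p = 1.3e-05), and Snrpn, a splicing protein gene, rose by 3.12 ± 0.32. Igf2, the fetal growth factor, had 11.98, 13.32, 12.60 and 11.68, against 15.83 and 15.79 (-3.41 ± 0.45, adjusted p = 0.0017), and its clearance receptor Igf2r also fell (-1.54 ± 0.29). Dcn and Cdkn1c, described above, were among the falls of this list too. Dlk1 and Mest had fibroblast values more than 2 units apart and were not called (adjusted p = 0.065 and 0.059). Of 22 interferon-induced and antigen presentation genes tested (29 listed), 4 rose and 5 fell, with a median of -0.04. These are 18.2% and 22.7%, near the 15.9% and 15.2% of all tested genes, so the list as a whole did not stand out. Isg15 (7.63, 7.65, 7.16 and 6.96, against 9.11 and 10.16; -2.29 ± 0.37, adjusted p = 0.0039) and Ifit3 (-2.01 ± 0.48), classical interferon targets, fell, whereas the transcription factor Irf1 (13.15, 13.13, 12.71 and 12.45, against 11.25 and 11.53; 1.47 ± 0.30, adjusted p = 0.0092) and the immunoproteasome subunits Psmb9 (1.84 ± 0.39) and Psmb10 (1.64 ± 0.29) rose. B2m, the light chain of MHC class I, was not called (-1.87 ± 0.66, adjusted p = 0.064). Without the secondary fibroblast array 2 imprinted and 1 interferon list gene were called lower and 2 interferon list genes higher, and without the primary array 2 imprinted and 1 interferon list gene were called higher.

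The 4 pluripotent arrays did not contribute equally. Among the genes kept as lower, ESC replicate 2 was the lowest of the 4 in 865 (56.4%), against 24% over all tested genes, and the median difference from the fibroblast mean was -1.55, -1.44, -1.49 and -1.9 in the usual order. Among the genes kept as higher it was the highest of the 4 in 730 (45.6%), against 26.5% over all tested genes, with medians of 1.62, 1.55, 1.54 and 1.89. ESC replicate 1, the array with macrophage transcripts, was the lowest in 38.7% of the genes kept as higher, against 34.5% of all tested genes, and the highest in 38.5% of those kept as lower, against 32.1%. Among the genes kept as lower, the iPSC mean was more than 2-fold above the ESC mean in 74 genes and more than 2-fold below it in 13. Of 14 lineage genes of other cell types tested (23 listed), 2 rose (14.3%) and 1 fell (7.14%), against 15.9% and 15.2% of all tested genes. The rises were Otx2 and the endoderm factor Sox7 (at least 1.31-fold). The fall was Zic1, a neural zinc finger gene (-2.77 ± 0.27, detected on 1 of the 4 pluripotent arrays). Without ESC replicate 1, 4 of the 14 were called higher, and without either fibroblast array 1. Sox17, an endoderm factor, had 7.99 and 8.85 on the iPSC arrays and 5.40 and 5.31 on the ESC arrays, against 4.57 and 4.77 on the fibroblast arrays, and Mixl1, a primitive streak factor, had 8.26 and 8.33 on the iPSC arrays and 5.02 and 4.97 on the ESC arrays, against 4.64 and 4.85 on the fibroblast arrays. Neither was called between the pluripotent and fibroblast groups, and both were called between iPSC and ESC in a limma fit with 3 groups (3.07, adjusted p = 0.036, and 3.3, adjusted p = 0.021, iPSC minus ESC).

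The day 16 clones, which were still in doxycycline, were set beside the pluripotent lines for the same genes. This comparison shares its pluripotent arrays with the one above, so each set of values is given side by side. Set against the F-class clones, the pluripotent lines were higher in 28.1% and lower in 32.2% of 11046 genes, and set against the C-class clones in 29.9% and 31.3%. Pou5f1 averaged 12.78 ± 0.76 in F-class (SD, n = 6) and 13.01 ± 0.70 in C-class clones (SD, n = 22), and its differences in the pluripotent lines, 0.50 (adjusted p = 0.32) and 0.27 (adjusted p = 0.53), were not called. Oct4 is 1 of the factors that doxycycline drives in these clones, and the sources used here do not say whether the probe reads the transgene. Gldc was likewise not called against F-class (12.39 ± 0.39, difference 1.16, adjusted p = 0.059) but was called against C-class (11.58 ± 0.99, difference 1.97, adjusted p = 3.5e-04).

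Other genes of the pluripotent set were called higher in the pluripotent lines than in both clone classes. Fbxo15 averaged 6.58 ± 0.40 in F-class clones and 7.05 ± 1.16 in those of C-class, and the pluripotent lines were higher by 5.47 (adjusted p = 1.0e-08) and 4.99 (adjusted p = 1.7e-09). Dppa5a averaged 8.30 ± 2.90 and 11.82 ± 2.58, with differences of 7.44 (adjusted p = 1.3e-04) and 3.92 (adjusted p = 0.01). The C-class clones spread over most of the scale in it, with a highest value of 15.24 that lay below the lowest pluripotent value of 15.38. Zfp42, Otx2 and Dnmt3l were also called higher in the pluripotent lines than in both classes. For Dnmt3l the highest C-class value, 13.77, lay above both iPSC values, 13.57 and 12.54. Of the 15 core factors tested, 12 were higher than in F-class and 11 higher than in C-class clones, and 0 were lower. Of the epithelial genes, 12 of 23 were higher and 2 lower against F-class, and 3 higher and 10 lower against C-class clones.

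Several fibroblast genes were higher in the pluripotent lines than in the clones. Ptn averaged 6.02 ± 0.85 in F-class clones and 5.43 ± 0.47 in those of C-class, and the pluripotent lines were higher by 2.42 (adjusted p = 1.0e-06) and 3.02 (adjusted p = 7.3e-10), while far below the fibroblasts. Mfap4 averaged 5.00 ± 0.23 and 4.91 ± 0.17, with differences of 2.43 (adjusted p = 2.4e-07) and 2.52 (adjusted p = 4.6e-09). Ogn, Lum, Ecrg4 and Igfbp5 were also called higher on the mean than in both classes, whereas Rtl3, Eln and Svep1 were not called against either class. Single arrays overlapped the clones in some of them. On ESC replicate 2, Lum was 4.98 and Igfbp5 7.48, below the highest F-class (5.06 and 7.87) and C-class values (5.39 and 8.45). Ogn was 7.44 on ESC replicate 1, and its other pluripotent values, 5.37 to 6.32, lay below the highest C-class value of 7.04. Timp3, a protease inhibitor bound to matrix, averaged 9.64 ± 0.52 in F-class clones and 10.42 ± 0.75 in those of C-class, and was called against F-class (1.42, adjusted p = 0.01) but not against C-class (0.64, adjusted p = 0.16). Of the 24 collagen genes, 19 were higher and 1 lower in the pluripotent lines than in F-class clones, and 18 higher and 1 lower than in C-class clones. Of the 34 matrix genes the counts were 26 and 1 against F-class, and 23 and 0 against C-class clones. The mean over the 34 was 8.88 on ESC replicate 2 and 10.23 to 10.33 on the other pluripotent arrays, against 8.11 in F-class clones and 8.54 in those of C-class. Fibroblast markers averaged 7.11 on ESC replicate 2 and 8.44 to 9.22 on the other pluripotent arrays, and their part in these counts was not tested. Ribosome biogenesis genes ran the other way, with 1 of 19 higher and 13 lower against F-class, and 1 higher and 12 lower against C-class clones.

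**Figure D5:**
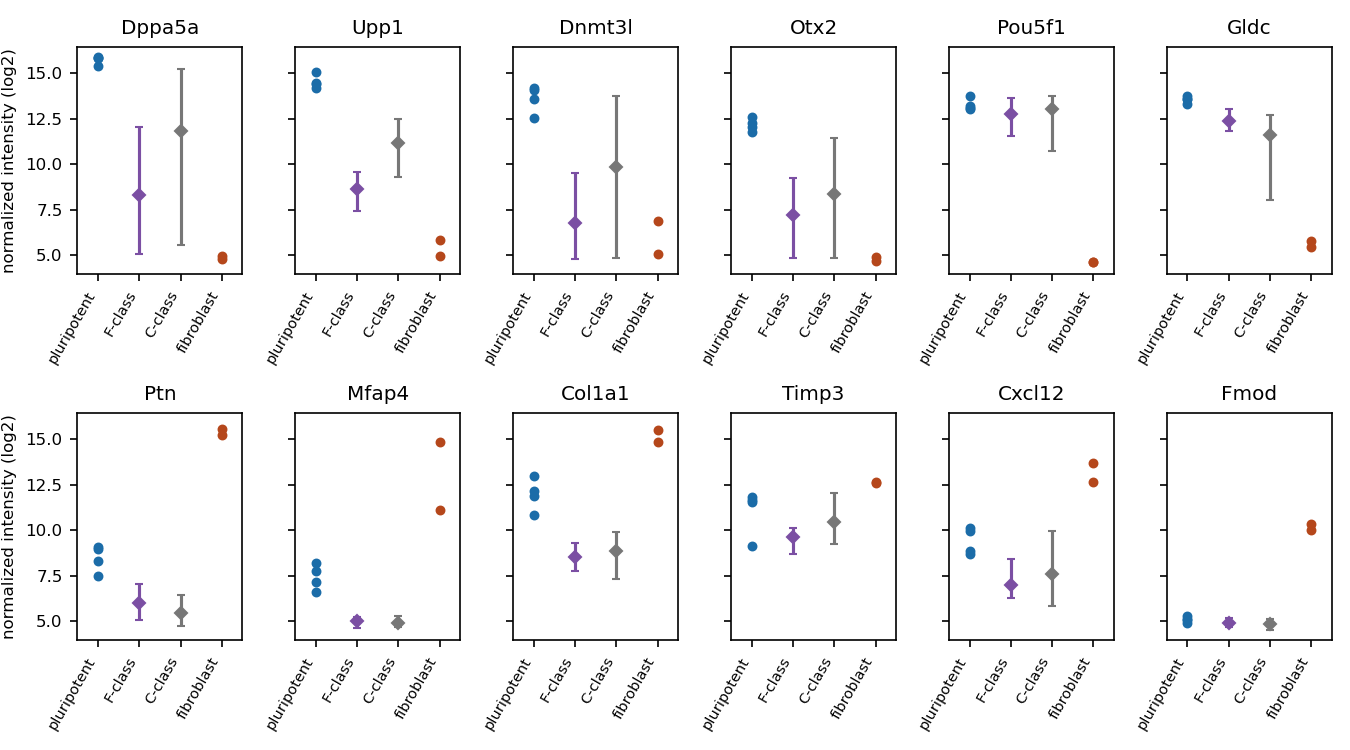
Normalized log2 intensity of 12 genes on the 4 pluripotent arrays (blue), in 6 F-class (purple) and 22 C-class clones (grey) and on the 2 fibroblast arrays (orange); points are single arrays, diamonds are clone means and bars the full range of the clones. The Pou5f1 means of both clone classes, 12.78 and 13.01, lie close to the pluripotent values, while Ptn, Mfap4 and Col1a1 lie lower in the clones than on the pluripotent arrays.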

How the data were processed

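Total RNA was hybridised to Illumina mouse bead arrays, 1 array per sample. The authors deposited unnormalized probe intensity values with a detection p-value per probe, per the file headers, and a further table of scaled intensity values that the authors deposited without a stated method, used here as an alternative. The log2 values reported were computed here from the deposited intensities. The sources used here give no labelling protocol or scanner software.

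neqc (limma 3.58.1, R 4.3.3; offset 16) corrected the background and normalized the intensities of all 51 arrays by quantiles. It took the negative controls from the detection p-values. Of 25697 probes, 23978 had 1 gene symbol and 1719 none. The probe with the highest mean stood for each gene, giving 16593 genes, and 10065 detected (p under 0.05) on at least 2 of the 6 arrays were tested with lmFit and eBayes. The clone comparisons used 1 fit over 5 groups. Named genes were the 15 with the largest difference each way, plus members of the gene lists, of which those with the largest and smallest change and those with a textbook role were described. The members and lists were chosen with earlier results of these data known. Samples were grouped by their labels. Promoter windows come from RefSeq, matched by symbol. The number of arrays limits the precision. The pluripotent against fibroblast fit was also run on simulated data with 200 changed genes among 10065. It recovered 8.96% of genes changed by 1 log2 unit, 65.7% by 2 and 84.8% by 4, and called 10 unchanged genes. In the real data 3134 genes were kept, and the Benjamini-Hochberg cutoff depends on how many genes differ. The simulated cutoff was therefore stricter, and these rates do not carry over to the real comparison. Alternatives varied the normalization, filter, probe choice, fit and arrays. Figures were drawn with matplotlib 3.10.9.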

Additional observations from a re-analysis of the deposited data

Results flagged for a closer look

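Among the 4 pluripotent arrays, 1 array lay far from the other 3 in 16 of 232 named genes and marker means put to a Dixon gap test. The value given is the gap to the nearest array divided by the range. Chance alone gives about 1 in 20 such groups, and 7.1% of all tested genes passed it. The macrophage marker mean on ESC replicate 1 (10.29, against 6.01 to 6.34 on the others) had a gap of 0.923, and C1qb on the same array (10.78, against 4.56 to 4.90) a gap of 0.945. ESC replicate 1 was also high in Cdh1 (0.85), Ddit3 (0.87) and Rtl3 (0.861) and low in Dusp6 (0.856), Lefty1 (0.843) and St14 (0.908). ESC replicate 2 was high in Cbx7 (0.834) and low in Ecrg4 (0.845), Snai1 (0.897), Tgfb3 (0.904), Timp1 (0.86) and Timp3 (0.9). The primary iPSC array was high in Cdkn1b (0.842), and the secondary iPSC array was low in Dppa5a (0.932), at 15.38 against 15.84 to 15.87.

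The iPSC and ESC pairs differed in 3 of 223 named genes in the limma fit with 3 groups, each group holding 2 arrays. Mixl1 (iPSC minus ESC 3.3, adjusted p = 0.021) and Sox17 (3.07, adjusted p = 0.036) were higher in iPSC, and Il6st (-2.48, adjusted p = 0.045) was lower. Over all tested genes 27 were called, 16 of them higher in iPSC.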

How the results depend on the processing

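The genes kept between pluripotent and fibroblast arrays numbered 1601 higher and 1533 lower. Leaving out 1 array at a time gave 741 to 1848 higher and 647 to 1744 lower, with both lowest counts without the secondary fibroblast array, both highest without ESC replicate 1, and 885 and 784 without the primary fibroblast array. Of the 3134 genes, 42.6% were also kept without the secondary fibroblast array, 50.3% without the primary one and 94.8% without ESC replicate 1. The fit over 5 groups, which estimates the spread from the clones as well, gave 2363 higher and 2350 lower. Quantile normalization, an offset of 50, normalization of the 6 arrays alone, the authors' scaled values, other detection filters, the mean of all probes, 3 groups and a 2-fold minimum gave 1439 to 1723 higher and 1378 to 1659 lower. With the replicate block, primary or secondary generation, 1471 were higher and 1357 lower. The iPSC and fibroblast arrays of the same generation deviated together with a correlation of 0.0345, and the generations were not taken as pairs. Number format as a term gave 1843 and 1804. The 4 arrays of several decimals alone, an alternative chosen after seeing the data, gave 1326 and 1274. Against the clones, leaving out 1 pluripotent array gave 2782 to 3046 higher and 3178 to 3395 lower (F-class), and 2819 to 3224 and 3001 to 3271 (C-class). Among the genes named in the text, 0 called differences changed sign under these pluripotent against fibroblast settings. Of 172 named genes with an adjusted p under 0.05, 43 lost it without the secondary fibroblast array, 33 without the primary one, 4 to 15 without a pluripotent array, 17 without a detection filter, 24 within the arrays of several decimals and 9 with the replicate block. Those lost without each fibroblast array in turn were Acta2, Bmp1, Dcn, Ddit3, Dnmt1, Esrp2, Id3, Itga1, Itga6, Itgb5, Klf4, Lmna, Lpar4, Lrrc47, Pim1, Psmb9, Smarcd1, Sox7, Stat3, Tek, Twist2, Vim, Wwtr1, Zeb2 and Zscan4c, those without the primary one alone Col18a1, Cox6b2, Egr1, Irf1, Mtf2, Parva, Pcgf6 and Snai1, and those without the secondary one alone Cdkn1b, Cdkn1c, Cdt1, Dazl, Eed, Esam, Fgf4, Hk2, Ifit3, Igf2r, Igfbp5, Lmnb2, Lum, Mcm4, Pdgfra, Suz12, Tgfbr2 and Twist1. The ones also lost without a pluripotent array were Acta2, Bmp1, Cdkn1b, Cox6b2, Dcn, Dnmt1, Itga1, Itgb5, Klf4, Lmna, Lmnb2, Lpar4, Lrrc47, Pim1, Sox7, Tek, Vim, Zeb2 and Zscan4c, and with the block Bmp1, Dcn, Dnmt1, Itgb5, Klf4, Lmna, Lrrc47, Pim1 and Zeb2. Quantile normalization without background correction and the authors' scaled values each moved 41 of the 172 differences by over 1.5 times and the mean of all probes 19. Differences of low genes are limited by background, and 404 higher genes have only a bound.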

Other observations

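Genes of further cell types were measured on the same arrays. Of 4 endothelial markers tested, 3 were called higher in the pluripotent arrays, as were 15.9% of all tested genes. They were Pecam1 (7.07, 7.82, 8.52 and 8.94, against 4.77 and 4.84), Tek (6.99, 8.09, 6.88 and 7.51, against 6.06 and 5.98) and Esam (6.65, 6.56, 7.46 and 7.95, against 5.48 and 4.83). Kdr was not called (difference -0.51, adjusted p = 0.46). Cdh5 and Tie1 were undetected on every array and, like Emcn, were not tested. Pecam1 is an adhesion molecule that ESC also carry. Of 2 neural markers tested, 1 was called higher, Stmn2 (11.87, 11.53, 11.62 and 11.99, against 8.64 and 7.21, adjusted p = 7.4e-04), a stathmin family gene. Keratinocyte markers averaged 6.52, 7.42, 6.01 and 5.99 on the pluripotent arrays, against 4.96 and 4.93 on the fibroblast arrays, highest on the secondary iPSC array, and 1 of 3 tested was called. Of the muscle, endoderm and erythroid markers tested (3, 2 and 1), 0 were called in limma, and 1 of them, Des, had an unadjusted p under 0.05.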
